A study of Mus musculus with 2 samples.

Results

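The clonotypes described here are the TCRβ rearrangements of iT cells that were read in both the thymus and the spleen library. They were chosen by the measured data themselves: a clonotype was a member when the nucleotide sequence of its CDR3, the stretch in which the V, D and J segments of the T cell receptor join, occurred in both libraries with a TRBJ gene as its leading J assignment. Of the 3492 distinct TCRβ CDR3 sequences in the data, 389 were members, 1251 were read in the thymus only and 1852 in the spleen only. Because presence in both libraries chose the members, their number and their presence are descriptions, and no test was made on them.

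iT cells are T cells made from mouse embryonic stem cells of the C57BL/6 background (CD45.2+) that carry a doxycycline-inducible Runx1-p2a-Hoxa9 cassette in the Rosa26 locus. The stem cells were turned into hematopoietic progenitors in culture and transplanted into irradiated B-NDG mice, CD45.1+ immunodeficient recipients that make no T cells of their own. Both libraries came from such recipients at week 6 after transplantation, and each held 15000 sorted T cells, CD4 single-positive and CD8 single-positive together. The methods list co-trimoxazole in the drinking water of transplanted B-NDG mice. Some recipients in the study were fed doxycycline, and the sources used here do not state whether the sequenced ones were. Both gates took CD45.2+ cells; the methods list the exclusion of other blood lineages and TCRγδ cells for the thymus alone, and CD62L+ CD44- for the spleen alone, although the study elsewhere calls the cells of both organs naïve. Tissue, library and gate cannot be told apart. The sources used here do not state whether both tissues came from the same animals.

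A TCRβ chain is built in the thymus by joining a D segment to a J segment and then a V segment to the D-J join. Bases are trimmed from the ends and random bases are added at both joints, so a CDR3 with many added bases is nearly unique to the cell in which it arose and to the daughters of that cell. This holds less for joins with few or no added bases. Whether members descend from the same cells was not tested. Rearrangement often leaves the reading frame, and a T cell can carry such a non-productive join on its other chromosome and still transcribe it. In mouse the V genes lie upstream of a first D-J cluster (TRBD1 and the TRBJ1 genes) and a second one (TRBD2 and the TRBJ2 genes) on chromosome 6, with the inverted gene TRBV31 beyond them.

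There was 1 library per tissue, so no difference between tissues has a replicate check and no p-value is given. The thymus library held 1782199 TCRβ reads in 1640 clonotypes and the spleen library 2765086 reads in 2241 clonotypes. At this depth 3 reads correspond to 0.000168% of thymus and 0.000108% of spleen TCRβ reads. Percentages are followed by their Wilson 95% interval. The intervals cover counting error only, since reads amplified without stated molecular identifiers are not independent molecules.

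The members were few but held most of the reads. They made up 23.7% of thymus clonotypes (21.7 to 25.8) and 17.4% of spleen clonotypes (15.8 to 19.0), and they held 90.1% of the thymus and 88.7% of the spleen TCRβ reads. The 10 largest members, ranked by the mean of their shares in the 2 libraries, held 73.5% and 81.8% of the reads, and the other 379 held 16.5% and 6.91%. The 10 are shown here because the read shares turn on them; capitals mark the bases between the aligned end of V and the aligned start of J, where added bases and D segment remnants lie.
TRBV13-3-TRBJ2-4: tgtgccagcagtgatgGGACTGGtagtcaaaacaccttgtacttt
TRBV19-TRBJ2-4: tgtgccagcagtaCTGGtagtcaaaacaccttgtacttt
TRBV20-TRBJ2-5: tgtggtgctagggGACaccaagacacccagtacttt
TRBV13-3-TRBJ1-6: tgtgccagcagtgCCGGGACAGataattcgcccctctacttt
TRBV5-TRBJ2-3: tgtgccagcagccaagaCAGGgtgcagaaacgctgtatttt
TRBV19-TRBJ1-3: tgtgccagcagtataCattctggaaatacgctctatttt
TRBV13-3-TRBJ1-2: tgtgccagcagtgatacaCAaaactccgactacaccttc
TRBV4-TRBJ1-2: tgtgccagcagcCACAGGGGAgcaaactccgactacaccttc
TRBV29-TRBJ1-1: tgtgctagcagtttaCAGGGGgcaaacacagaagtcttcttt
TRBV17-TRBJ1-2: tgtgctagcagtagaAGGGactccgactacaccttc

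Between V and J these 10 members carried from 1 base (TRBV19-TRBJ1-3) to 9 bases. The bases GGACTGG of the TRBV13-3-TRBJ2-4 join, assigned to TRBD2, are also found in the GENCODE sequence of Trbd2 (gggactgggggggc, chr6:41542163-41542176, GRCm38, plus strand). All were in frame except TRBV5-TRBJ2-3, whose CDR3 of 41 nucleotides was out of frame.

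The order of the largest members differed between the tissues. TRBV13-3-TRBJ2-4 was the largest clonotype of the spleen with 1552980 reads, 56.2% of TCRβ reads, and ranked 3 in the thymus with 209372 reads, 11.7%. TRBV19-TRBJ2-4 was the largest of the thymus with 475490 reads and had 327215 in the spleen, a spleen to thymus ratio of read shares of 0.444. TRBV20-TRBJ2-5 had 222857 thymus and 10532 spleen reads, a ratio of 0.0305. The 3 leading members of the thymus thus stood in a different order in the spleen, where the TRBV20 clonotype was at rank 8. The widest difference among the 10 was that of TRBV19-TRBJ1-3, with 802 thymus and 167133 spleen reads, ranked 119 and 3 (ratio 134, counting interval 125 to 144). Of the other members, TRBV13-3-TRBJ1-6, TRBV13-3-TRBJ1-2, TRBV4-TRBJ1-2 and TRBV29-TRBJ1-1 had ratios from 0.0417 to 0.0848, and TRBV17-TRBJ1-2 had 0.327. Of these 10 members, 7 were below a ratio of 1. Since read shares sum to 100%, the 56.2% held by TRBV13-3-TRBJ2-4 in the spleen lowers every other spleen share; with that clonotype left out of both totals, the ratio of TRBV19-TRBJ2-4 was 0.893 and that of TRBV20-TRBJ2-5 was 0.0613.

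The non-productive member TRBV5-TRBJ2-3 was among the most evenly read. It had 77447 thymus reads (4.35%) and 155690 spleen reads (5.63%), a ratio of 1.30 (1.28 to 1.31), and ranked 5 and 4. With the largest spleen clonotype left out of both totals its ratio was 2.61.

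**Figure D1:**
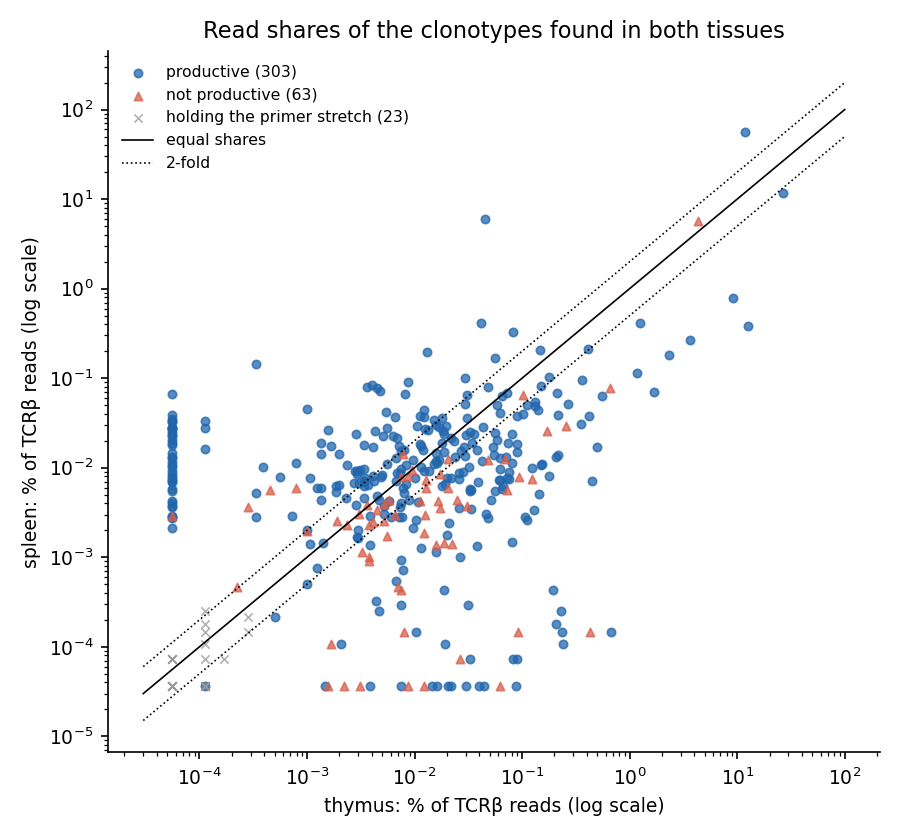
Each point is a member, placed by its percentage of TCRβ reads in the thymus (x axis) and the spleen (y axis), both on log scales; the solid line marks equal shares and the dotted lines a 2-fold difference. Non-productive members (triangles) lie mostly below the line of equal shares, 23 members with a primer stretch (crosses) sit at the lowest counts, and the vertical and horizontal rows of points are members with 1 read in a tissue.

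Sharing rose with the size of a clonotype from 10 reads upward. All 12 thymus clonotypes and all 8 spleen clonotypes of 10000 or more reads were members. Among those with at least 1000 and under 10000 reads, 71 of 87 thymus clonotypes (81.6%, 72.2 to 88.4) and 48 of 61 spleen clonotypes (78.7%, 66.9 to 87.1) were members. From 100 to under 1000 reads the percentages were 23.4% (20.3 to 26.9) and 17.5% (15.5 to 19.8), and from 10 to 99 reads they were 13.6% (11.2 to 16.5) and 8.96% (7.08 to 11.3). Of clonotypes with 1 read, 29.7% of the thymus ones (23.3 to 37.1) and 20.9% of the spleen ones (14.9 to 28.4) were members, above the class of 10 to 99 reads in both tissues. Of those with 2 to 9 reads, 20.3% (14.1 to 28.5) and 23.9% (17.6 to 31.7) were members. In the thymus the percentage at 2 to 9 reads depended on clonotypes with a primer stretch described further on: without them it was 12.1% (7.07 to 20), no longer above the 13.6% at 10 to 99 reads, and 8.47% of the class against 12.2% had a partner of at least 10 spleen reads. In the spleen it was 18.4% without them (12.4 to 26.5). The part of depth in these differences was not tested.

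**Figure D2:**
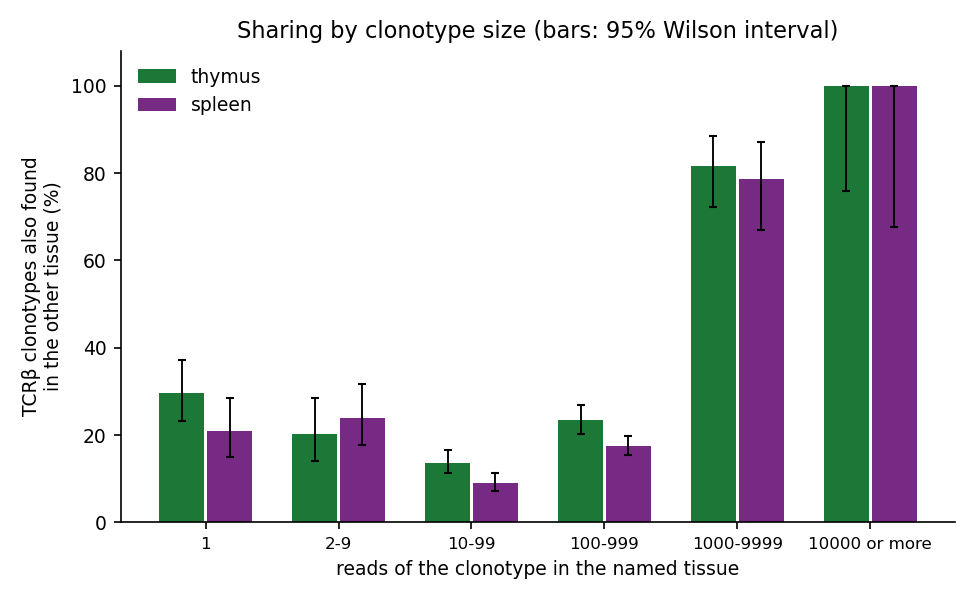
Bars give the percentage of thymus (green) and spleen (purple) TCRβ clonotypes that were also found in the other tissue, by the number of reads of the clonotype in the named tissue; error bars are Wilson 95% intervals. The bars are lowest at 10 to 99 reads (13.6% and 8.96%) and reach 100% at 10000 reads or more; the thymus bar at 2 to 9 reads falls from 20.3% to 12.1% without clonotypes holding the primer stretch.

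The largest clonotypes just outside the group give its edge. In the thymus the 3 largest that were absent from the spleen were TRBV15-TRBJ2-7 with 3715 reads (rank 29), TRBV13-1-TRBJ2-1 with 2780 and the out-of-frame TRBV5-TRBJ2-7 with 1933. In the spleen the 3 largest that were absent from the thymus were TRBV13-1-TRBJ1-2 with 3719 reads (rank 17), TRBV1-TRBJ2-5 with 2885 and TRBV13-3-TRBJ1-2 with 2545. Just inside were 49 members with 1 read in the thymus and 29 with 1 read in the spleen, of which 7 had 1 read in both. At least 10 reads in both tissues were held by 279 members, and at least 1000 in both by 34, which held 79.4% of the thymus and 77.9% of the spleen reads.

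The members with 1 thymus read were of 2 kinds. Of the 49, 11 held a primer stretch described further on, and the other 38 had at least 10 reads in the spleen. Over the 49 the spleen reads had a median of 208 and a maximum of 1818, and 41 were productive (83.7%, 71.0 to 91.5), against 48 of 116 clonotypes with 1 read that were in the thymus only (41.4%, 32.8 to 50.5). Among clonotypes without the stretch the productive share was 97.4% in members and 47.1% in the others. Members with 1 read in the spleen had a median of 39 reads in the thymus. Of these 29, 14 were productive (48.3%, 31.4 to 65.6), against 37.3% (28.8 to 46.6) in the spleen only. In both contrasts the members have reads in the other tissue by definition and the others have none. The groups are therefore matched by reads in 1 tissue alone, and frame at equal size over both tissues was not compared. Other members were one-sided as well: TRBV13-2-TRBJ2-3 had 11848 thymus and 4 spleen reads, the out-of-frame TRBV31-TRBJ2-7 had 7653 and 4, and TRBV16-TRBJ1-1 had 1 and 1818 (ratio 1172, counting interval 165 to 8323).

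The reading frame of the members was compared with that of clonotypes in 1 tissue only. Of the 389 members 311 were productive (79.9%, 75.7 to 83.6), against 70.5% in the thymus only (67.9 to 73.0) and 75.3% in the spleen only (73.3 to 77.2). The difference depended on clonotype size. In the thymus members stood above the others at 1 read, as given above, and at 10 to 99 reads. The latter shares were 77.9% (68.1 to 85.4) against 63.9% (59.7 to 67.8). Members of that class had a median of 156 spleen reads and the others none. These classes were thus matched by thymus reads alone. Among clonotypes of 100 to under 1000 reads the productive share was 81.0% in members and 87.7% in the thymus only (84.5 to 90.3), and 87.4% in members and 91.1% in the spleen only (89.1 to 92.7), so that members were not above the others in either tissue, with intervals that overlapped.

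**Figure D3:**
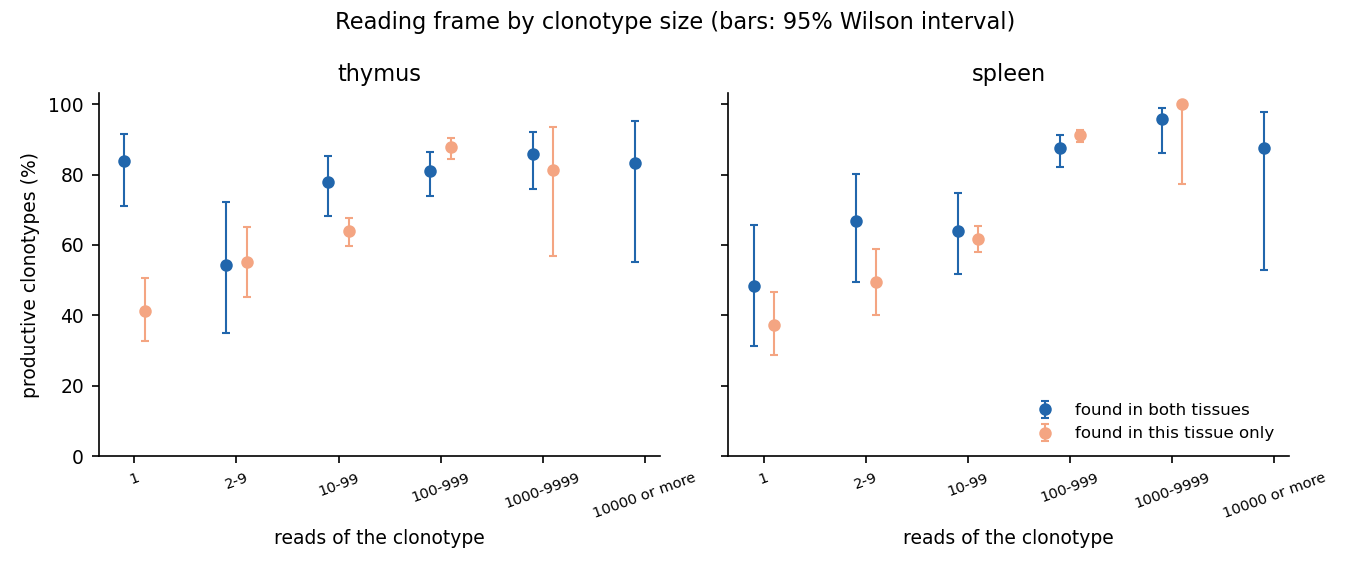
Points give the percentage of productive clonotypes among members (blue) and among clonotypes of that tissue only (orange), by reads of the clonotype, with Wilson 95% intervals; the left panel is the thymus and the right panel the spleen. Members stand above the others at 1 read in the thymus (83.7% against 41.4%). They stand below them, with overlapping intervals, in the class that starts at 100 reads in both tissues. Classes count reads in the tissue of the panel alone, and members also have reads in the other tissue.

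The 78 non-productive members, 75 with a shifted frame and 3 with a stop codon in frame, held 6.97% of the thymus and 6.05% of the spleen TCRβ reads. Without TRBV5-TRBJ2-3 they held 2.62% and 0.415%. The next in size, TRBV17-TRBJ1-1, had 11741 thymus and 2137 spleen reads (ratio 0.117). TRBV31-TRBJ2-7, with 7653 and 4 reads, had a ratio of 0.000337 (0.000126 to 0.000898), and TRBV15-TRBJ1-5, with 4594 and 817, one of 0.115. TRBV4-TRBJ2-1 had 0.153 and TRBV17-TRBJ1-2, with 1807 and 1799 reads, 0.642. These 5 were all below a ratio of 1 and ranged widely.

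Frame and tissue ratio went together within the members. A read share at least 2-fold higher in the spleen was found for 111 of 389 members (28.5%, 24.3 to 33.2), beside 33.2% of the 1089 TCRα and TCRβ clonotypes found in both tissues, and a share at least 2-fold higher in the thymus for 167 (42.9%, 38.1 to 47.9), beside 41.0%. Both shares of members are near that background, which includes the members themselves. Of the 700 TCRα clonotypes alone, 35.9% (32.4 to 39.5) were at least 2-fold higher in the spleen and 40% (36.4 to 43.7) in the thymus. Their intervals overlap those of the members, narrowly for the spleen. Of the 311 productive members 106 were at least 2-fold higher in the spleen (34.1%, 29.0 to 39.5), and of the 78 non-productive ones 5 were (6.41%, 2.77 to 14.1), so the intervals did not overlap. The median ratio was 0.774 in productive and 0.400 in non-productive members.

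The same order was seen with deeper members. Among those with at least 100 reads in both tissues, 22 of 145 productive members (15.2%, 10.2 to 21.9) and 0 of 24 non-productive members (0 to 13.8) were at least 2-fold higher in the spleen. These intervals overlap, and the difference itself was not tested. With at least 10 reads in both tissues the shares were 26.4% (21.1 to 32.4) of 231 and 2.08% (0.369 to 10.9) of 48. Leaving the largest spleen clonotype out of both totals turned the median ratio of the members from 0.652 to 1.31. The number at least 2-fold higher in the spleen moved to 158 of 388 and the number at least 2-fold higher in the thymus to 114. Then 14 of 78 non-productive members (17.9%) were at least 2-fold higher in the spleen, against 46.5% of the productive ones. The balance of the 2 directions therefore depended on that clonotype.

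Read counts of the members in the 2 tissues were loosely related. Across the 389 members, which share 2 libraries and are not independent replicates, Pearson's r of log10 reads was 0.338 and Spearman's rho 0.296, and without the 23 members that hold the primer stretch they were 0.183 and 0.209. Over the 311 productive members r was 0.245, and over the 78 non-productive ones it was 0.651. Both values include members with the primer stretch, which lie at the lowest counts in both tissues. Without them 303 productive and 63 non-productive members remained, and r was not computed for these. The 2 values therefore cannot be compared as a difference between frames. Of the 100 largest clonotypes of each tissue, 83 in the thymus and 71 in the spleen were members, and 36 were among the 100 largest of both.

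Of the 169 members with at least 100 reads in both tissues, 145 were productive, among them all those named here at either end of the ratio. After TRBV19-TRBJ1-3, the highest spleen to thymus ratios belonged to TRBV5-TRBJ2-4 (233 thymus and 5419 spleen reads, ratio 15), a TRBV13-3-TRBJ1-2 join (155 and 2483, 10.3), TRBV13-1-TRBJ2-4 (734 and 11410, 10) and TRBV20-TRBJ1-2 (144 and 1858, 8.32). With TRBV19-TRBJ1-3, these 5 carried from none to 7 bases between V and J, and the CDR3s not yet printed are shown.
TRBV5-TRBJ2-4: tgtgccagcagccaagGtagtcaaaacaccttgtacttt
TRBV13-3-TRBJ1-2: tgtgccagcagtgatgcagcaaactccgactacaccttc
TRBV13-1-TRBJ2-4: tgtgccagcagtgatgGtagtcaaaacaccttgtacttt
TRBV20-TRBJ1-2: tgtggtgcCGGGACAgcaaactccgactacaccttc

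In the TRBV13-3-TRBJ1-2 join of this list the alignments of V and J overlapped, so it has no capitals. At the other end stood TRBV5-TRBJ2-7 (8017 thymus and 194 spleen reads, ratio 0.0156), TRBV20-TRBJ2-5 and TRBV29-TRBJ1-1 from the list of the 10 largest, TRBV19-TRBJ1-5 (8916 and 474, 0.0343) and TRBV13-2-TRBJ1-2 (2578 and 139, 0.0348).
TRBV5-TRBJ2-7: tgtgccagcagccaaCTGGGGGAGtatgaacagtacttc
TRBV19-TRBJ1-5: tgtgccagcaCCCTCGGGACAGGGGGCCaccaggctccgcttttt
TRBV13-2-TRBJ1-2: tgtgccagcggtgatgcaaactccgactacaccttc

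The thymus-high TRBV19-TRBJ1-5 join carried 18 bases between V and J, and TRBV13-2-TRBJ1-2 carried none. These lists hold the extremes of 169 members with 100 or more reads in both tissues, of which 22 were at least 2-fold higher in the spleen, 84 in the thymus and 63 in neither, so they describe the ends of the range.

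The members used 24 of the 26 V genes and all 12 J genes read in these libraries. The leading V genes were TRBV19 with 51 members, TRBV16 with 37, TRBV5 with 35, TRBV13-2 with 34 and TRBV20 with 30. Of the 37 TRBV16 members 16 held the primer stretch, and the 21 others were fewer than the members of TRBV13-3 (24) and TRBV17 (23). The leading J genes were TRBJ1-2 with 97 members (24.9%, 20.9 to 29.5), TRBJ2-7 with 56 and TRBJ2-1 with 50. V and J calls were the same in both tissues for 383 members, and the 6 others differed in V only. A V gene annotated as a pseudogene (TRBV24, TRBV8 or TRBV22) was assigned to 10 members, of which 3 were productive, with at most 583 thymus and 393 spleen reads.

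Use of single V and J genes was compared next. Of the 38 V and J genes, 4 in the thymus (10.5%) and 4 in the spleen (10.5%) had an interval of the percentage shared that lay apart from that of all TCRβ clonotypes. In the thymus these were TRBJ1-1 (36.5%, 26.4 to 47.9), TRBJ1-3 (50%, 30.7 to 69.3) and TRBJ1-5 (43.2%, 29.7 to 57.8) above it and TRBJ2-5 (14.5%, 10.6 to 19.6) below it. In the spleen TRBV17 (32.4%, 22.7 to 43.9), TRBJ1-2 (25.1%, 21.1 to 29.7) and TRBJ1-5 (28.8%, 19.3 to 40.6) stood above it and the inverted TRBV31 (10.1%, 6.33 to 15.8) below it. Without clonotypes that hold the primer stretch the thymus genes stayed the same, while in the spleen TRBV31 no longer stood apart and TRBJ2-3 did, with 6.88% shared (4.21 to 11) in place of 13.8%. TRBJ1-5 was the gene that stood apart in both tissues, with 19 members of 44 thymus and 66 spleen clonotypes. Among clonotypes of at least 100 reads, 14 of 28 TRBJ1-5 clonotypes in the thymus (50%) and 14 of 35 in the spleen (40%) were members. Of all clonotypes at this depth 31.7% (28.4 to 35.2) and 21% (18.9 to 23.4) were. No interval was computed for these TRBJ1-5 counts, so whether the gene stood apart at this depth was not assessed.

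**Figure D4:**
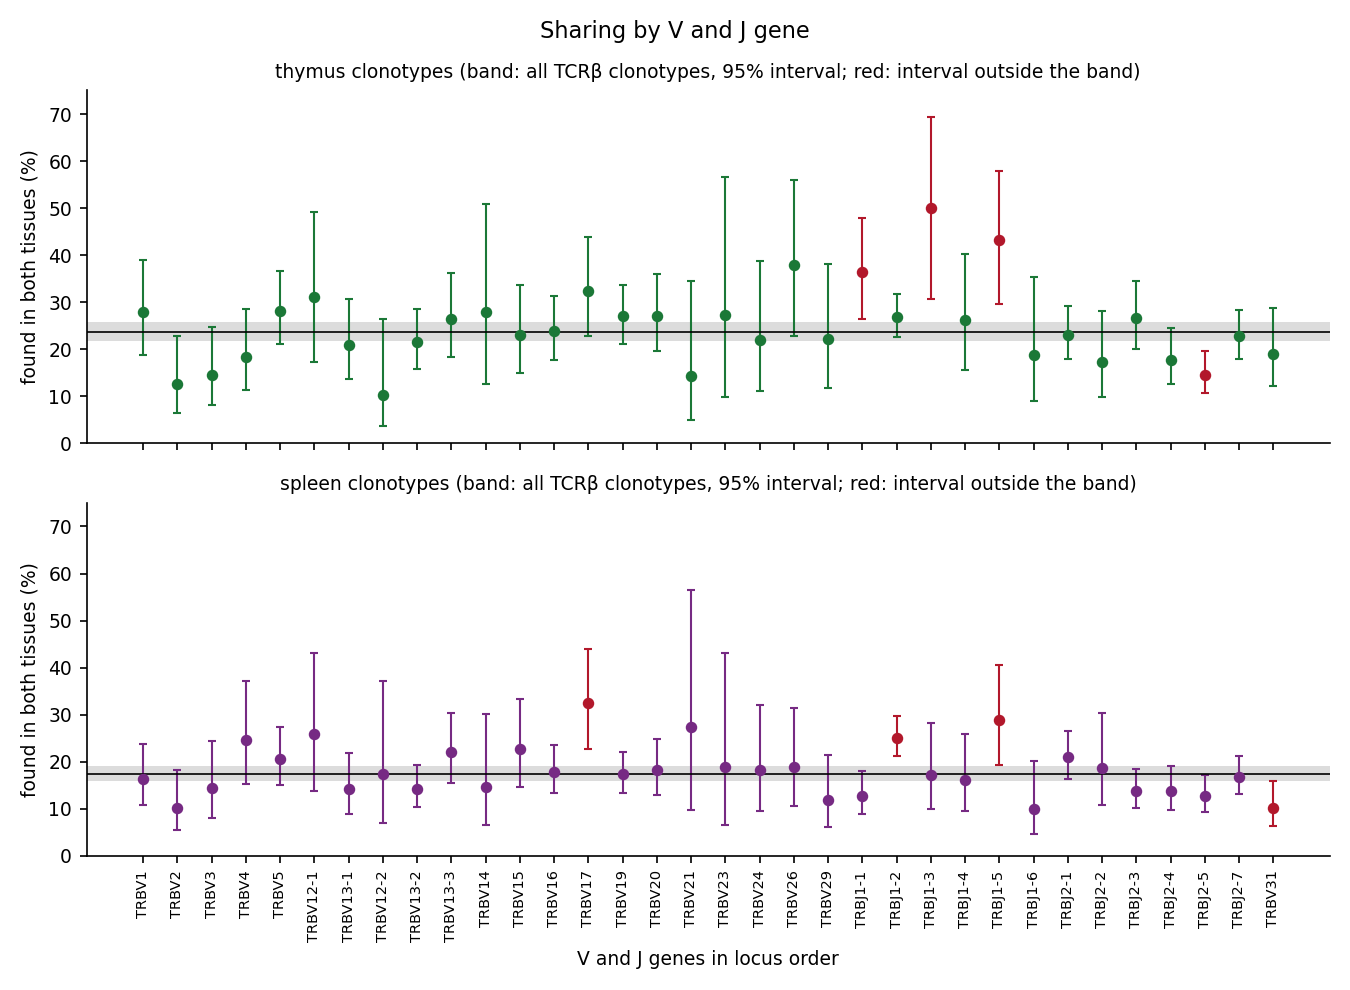
Points give the percentage of clonotypes with a given V or J gene that were found in both tissues, with Wilson 95% intervals, for thymus (upper panel) and spleen (lower panel), in order along the locus and for genes with at least 10 thymus clonotypes. The grey band is the interval over all TCRβ clonotypes; red points, such as TRBJ1-5 at 43.2% and 28.8%, have intervals that do not reach it.

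Grouped by cluster, 217 of 389 members (55.8%, 50.8 to 60.6) used a TRBJ2 gene, against 67.5% in the thymus only (64.8 to 70.0) and 62.7% in the spleen only (60.5 to 64.9). At 100 reads or more the shares were 50.4% in members and 65.7% in the thymus only, and 50.2% in members and 61.5% in the spleen only. The interval of members stayed below that of the spleen-only clonotypes at this depth (44.2 to 56.2 against 58.4 to 64.5), while over all sizes the upper end reached it. This class is open at the top, where most clonotypes were members. From 100 to under 1000 reads the intervals overlapped in the spleen (45.9 to 59.3 against 58.5 to 64.6). In the thymus they did not (40.4 to 56.3 against 61.3 to 69.7). D was assigned to 224 members by the thymus calls (57.6%, 52.6 to 62.4), fewer than in the thymus only (69.6%, 67.0 to 72.1) or the spleen only (69.9%, 67.7 to 71.9).

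Single D segments were compared as well. TRBD2 was assigned to 24.2% of members (20.2 to 28.7), 43.7% of thymus-only clonotypes (41.0 to 46.5) and 31.0% of spleen-only ones (28.9 to 33.1). Against the spleen-only clonotypes the intervals overlapped without the primer stretch (21.5 to 30.4 against 29.1 to 33.4), and from 100 to under 1000 reads they overlapped for both tissues, as they did for the share with any assigned D. TRBD1 was assigned to 33.4% of members, 25.9% in the thymus only and 38.9% in the spleen only, so members lay between them. TRBD2 lies downstream of the TRBJ1 genes, and of the 94 members with TRBD2, 90 used a TRBJ2 gene and 4 a TRBJ1 gene.

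Productive members had slightly shorter CDR3s on average. Their length was 40.8 ± 5.35 nucleotides (SD over 311 clonotypes, not over replicates), against 42.9 ± 8.98 in the thymus only and 42.0 ± 9.67 in the spleen only, and the median was 42 in each. The last 2 groups held CDR3s of up to 168 and 264 nucleotides, which raise their means and SDs. Without clonotypes that hold the primer stretch the lengths were 40.6 ± 5.17, 42.4 ± 6.15 and 41.5 ± 4.75. Lengths of 36 or 39 nucleotides made up 39.5% of productive members (34.3 to 45.1), 28.9% of the thymus-only clonotypes (26.0 to 32.0) and 33.5% of the spleen-only ones (31 to 36). Lengths of 48 nucleotides or more made up 13.5% (10.1 to 17.8), 22.9% (20.3 to 25.8) and 14.6% (12.9 to 16.6). Over all sizes the members thus differed from the thymus-only clonotypes at both ends of the range, while their intervals overlapped those of the spleen-only clonotypes. From 100 to under 1000 thymus reads the intervals for 48 nucleotides or more overlapped (8.45 to 20.7 against 17.3 to 25). Those for 36 or 39 nucleotides did not (35.1 to 52.7 against 24.4 to 33). The bases between V and J had a median of 8 in members, 10 in the thymus only and 8 in the spleen only.

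**Figure D5:**
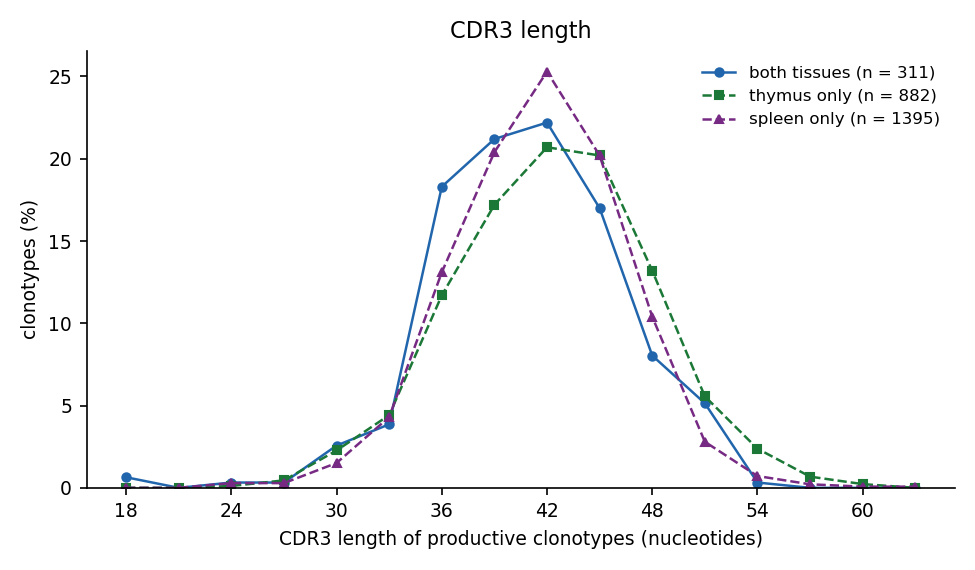
Lines give the percentage of productive clonotypes at each CDR3 length in nucleotides for the 311 members (blue), 882 thymus-only (green) and 1395 spleen-only clonotypes (purple), up to 63 nucleotides. The curve of the members is higher at 36 nucleotides, where it holds 18.3% against 11.7% in the thymus only.

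A recurrent junction was found in many members. Of the stretches of 12 bases absent from the annotated Trb gene segments, the one held by most TCRβ clonotypes was aaaactccgact, a join into TRBJ1-2 that had lost the first base of the J gene. It was present in 49 members (12.6%, 9.66 to 16.3), 6.79% of thymus-only clonotypes (5.53 to 8.33) and 3.51% of spleen-only ones (2.76 to 4.45). It made up 50.5% of the 97 TRBJ1-2 members, with 21 different V genes, and 36 of the 49 were productive. In 28 of the 49 it followed ggac, which is part of TRBD1 as well as of TRBD2. With the first base of the stretch this reads ggaca, which is in the GENCODE sequence of Trbd1 and not in that of Trbd2. TRBD1 was assigned to 25 of the 49 members, and 23 had no assigned D. Other joins into the same J gene were distributed differently. The stretch acaaactccgac was in 0.514% of members, 5.68% of thymus-only and 0.378% of spleen-only clonotypes, and gcaaactccgac in 4.11%, 2.56% and 7.29%.

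Some members encoded the same CDR3 protein. Among the 311 productive members, 13 fell into 6 groups with the same CDR3 protein, and 11 of the 13 used TRBJ1-2. The junction aaaactccgact was in 9 of the 13, in 4 of the groups, out of 36 productive members that held it. The largest group had 3 members with 3 V genes, shown with a pair of members of the second group and the germline segments from GENCODE; capitals mark the bases between V and J.
TRBV19-TRBJ1-2, group 1: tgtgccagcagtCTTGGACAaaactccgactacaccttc
TRBV15-TRBJ1-2, group 1: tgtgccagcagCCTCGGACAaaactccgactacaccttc
TRBV26-TRBJ1-2, group 1: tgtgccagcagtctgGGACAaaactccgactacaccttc
TRBV15-TRBJ1-2, group 2: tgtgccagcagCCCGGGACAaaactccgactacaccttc
TRBV19-TRBJ1-2, group 2: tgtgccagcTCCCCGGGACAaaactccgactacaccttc
Trbd1, chr6:41533201-41533212: gggacagggggc
Trbj1-2, chr6:41534001-41534048: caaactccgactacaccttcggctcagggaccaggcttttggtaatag

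In group 1 the members had 588 and 151, 200 and 1034, and 171 and 339 reads in thymus and spleen, and in group 2 they had 133 and 422, and 121 and 194. In group 1 the TRBV19 member had the higher share in the thymus (ratio 0.166) and the others in the spleen (ratios 3.33 and 1.28), while in group 2 both ratios were above 1 (2.05 and 1.03). Partners of the same protein were about as frequent outside the members: 11.6% of productive members (8.48 to 15.6), 10.2% of thymus-only clonotypes (8.38 to 12.4) and 9.32% of spleen-only ones (7.90 to 11) shared their CDR3 protein with another clonotype of either library. Of 318 productive CDR3 proteins found in both tissues, 14 were not shared through an identical nucleotide sequence.

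Some members did not have the form of a V-D-J join. In 23 members the CDR3 held aagcagtggtatcaacgcagagtacggg, a stretch of 28 bases that is absent from the Trb segments of GENCODE and that corresponds to the oligonucleotide of SMART template-switching cDNA synthesis. A member with 5 thymus and 4 spleen reads is shown with that stretch in capitals.
TRBV16-TRBJ2-3: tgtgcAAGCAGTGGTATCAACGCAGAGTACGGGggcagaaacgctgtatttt

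All 23 were assigned to TRBJ2-3, and 16 of them to TRBV16. They had at most 5 thymus and 7 spleen reads each, 42 and 52 in all, and all 7 members with 1 read in both tissues were among them. A piece of 12 bases of the stretch was in 78 thymus and 82 spleen TCRβ clonotypes, and in 27.6% and 29.6% of those with under 10 reads. Clonotypes with this piece were those left out where values by read class, gene, D segment or length are given without the stretch. Without the stretch 366 members remained, and the productive share was 82.8%.

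A pair of members had CDR3s of 171 and 169 nucleotides, while all others had 16 to 55. Each began with the whole CDR3 of another member, a TRBV17-TRBJ1-1 join, and went on for 137 more bases to a TRBJ1-2 end; 137 is also the distance between the starts of Trbj1-1 (chr6:41533864-41533911) and Trbj1-2 on GRCm38. Capitals mark the 137 added bases, of which the first 28 were the remaining bases of Trbj1-1.
TRBV17 member of 34 nucleotides: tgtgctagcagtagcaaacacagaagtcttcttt
TRBV17 member of 171 nucleotides: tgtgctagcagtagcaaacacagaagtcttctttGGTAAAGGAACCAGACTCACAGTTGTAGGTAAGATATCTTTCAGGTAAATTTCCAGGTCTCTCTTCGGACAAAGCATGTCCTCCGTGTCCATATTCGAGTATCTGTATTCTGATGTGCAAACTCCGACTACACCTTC

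The longer member had 867 thymus and 335 spleen reads, 7.38% and 15.7% of those of the member it began with. The reads of the member of 169 nucleotides, 80 and 94, came to 77.7% of those of its starting member of 32 nucleotides in both tissues. In all, 12 TCRβ clonotypes of these libraries had this form, each longer than its starting CDR3 by 137 bases, and 2 of them were members.

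At the other end, 3 of the 9 members under 30 nucleotides ended in at least 16 bases of germline Trbj2-1, with at most 2 bases before them. The larger ones are shown with the bases that match Trbj2-1 (chr6:41542754-41542803) in capitals.
Member of 16 nucleotides: TGCTGAGCAGTTCTTC
Member of 18 nucleotides: TATGCTGAGCAGTTCTTC

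The shorter had 3024 thymus and 718 spleen reads (ratio 0.153), and the longer 1594 and 412 (ratio 0.167). The member of 18 nucleotides matched Trbj2-1 over its whole length and was counted as productive, and its CDR3 holds no base that is not in Trbj2-1. Near neighbours of large clonotypes were rare among the members. No member was a single substitution away from a clonotype of the same library with at least 20 times its reads, against 13 thymus-only and 21 spleen-only clonotypes. At up to 3 substitutions and 1000 times the reads, 4 members had such a neighbour.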

How the data were processed

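TCR transcripts of sorted iT cells were measured in 2 libraries, 1 from the thymus and 1 from the spleen. Libraries were prepared with the SMARTer Mouse TCR a/b kit for MiSeq sequencing, and the authors assembled clonotypes with MiXCR. The deposited value of each clonotype is its read count, without normalization, and the authors also gave the fraction of the library's reads that it represents, which was not used. Filters, molecular identifiers and a genome build are not given in the sources used here.

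Clonotypes with a TRBJ gene as first J hit were kept and shares recomputed over TCRβ reads. Clonotypes were matched by identical CDR3 nucleotide sequence, and first hits gave V, D and J. A productive CDR3 had no frameshift or stop codon. Wilson 95% intervals came from scipy 1.17.1, and counting intervals of ratios used the standard error of the log ratio. Matching and merging were tested on simulated data. Segments and coordinates came from GENCODE M21 (GRCm38). The named clonotypes were the 10 largest members, the 5 highest and 5 lowest ratios among members with at least 100 reads in both tissues, and the 3 largest clonotypes of each tissue just outside; genes named were the 5 leading V and 3 leading J genes and those whose interval lay apart. One-sided, long, short and primer-bearing members and recurrent stretches were chosen after their values were seen. The members and lists were chosen with earlier results of these data known. The alternatives tried were other matching rules, read minima, chain assignment, merging of 1-base neighbours, frame and denominators. No tests were made, with 1 library per tissue. TCRα clonotypes were used only as background.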

Additional observations from a re-analysis of the deposited data

How the results depend on the processing

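The number of members ranged from 279 (at least 10 reads in each tissue) to 399 (same CDR3 protein) over the alternatives, within 1.5 times of 389. Of 68 alternative values of the 10 main results, 52 lay within the counting interval, SD or 1.5-fold range of the reported value. The share of reads in members left its narrow counting interval but changed little: in the thymus it was 90% with the same V and J required, 89.7% with at least 2 reads and 87.3% with at least 10 reads in each tissue, 90.7% for productive clonotypes and 90.4% by CDR3 protein; in the spleen it was 88.1% and 87.8% with those read minima, 88.9% for productive clonotypes and 88.9% by protein. TRBJ2 use was 50.2% with at least 10 reads. The share of members at least 2-fold higher in the spleen was 23.0% with at least 2 reads, 22.2% with at least 10 and 33.4% for productive clonotypes. Leaving out the largest spleen clonotype, an alternative added after the data were seen, moved it to 40.7% and the share at least 2-fold higher in the thymus from 42.9% to 29.4%. The median ratio of the 10 largest was 0.206, and 0.0835 over productive reads, where the out-of-frame TRBV5-TRBJ2-3 drops out and the other 9 ratios moved by less than 1.5 times. Leaving out clonotypes with the primer stretch, also added later, moved none of the main results past these limits, but lowered the shared percentage of thymus clonotypes with 2 to 9 reads from 20.3% to 12.1%; 4 genes per tissue still stood apart, with TRBJ2-3 in place of TRBV31 in the spleen. No paired analysis was possible because there is 1 library per tissue and no test. With 1 library each, differences between tissues cannot be told apart from differences between libraries, and clonotypes under 3 reads are at the limit of the depth.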
